A study of Arabidopsis thaliana with 8 samples.

Results

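Genotype under salt was examined by setting the salt-treated libraries labelled *idd4* against the salt-treated WT libraries, over every gene with a mean of at least 10 scaled fragments in these 4 libraries. That minimum kept 19534 of the 27207 genes in the table. The seedlings were 14 days old and had been moved after 5 days of growth to plates with 100 mM NaCl. *idd4* NaCl 1 and 2 carried the label of the *idd4* mutant background, WT NaCl 1 and 2 that of the Col0 background, and no other allele or agent is named. Untreated seedlings of both genotypes (mock, 2 libraries each) served to show whether a difference was also there without NaCl. They also entered the estimate of the spread of each gene. Whole seedlings were sampled, so that fewer cells of a type and less RNA per cell cannot be told apart. The paper describes more biological replicates per group than the 2 libraries used here. The labels do not say how these were grown, and p-values measure only the spread between libraries of a group, taken over all 4 groups.

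IDD4 is a zinc finger transcription factor of the INDETERMINATE DOMAIN (IDD) family, whose members often work together with GRAS proteins such as the DELLA repressors of gibberellin signalling. Plants meeting salt accumulate abscisic acid (ABA). Its receptors of the PYR/PYL family hold back the PP2C phosphatases, which frees SnRK2 kinases to activate ABF transcription factors. ABFs bind the ABA-responsive element (ABRE) in promoters of dehydrins and late embryogenesis abundant (LEA) proteins, which protect cells losing water, while sodium is moved by transporters of the SOS, NHX and HKT types.

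A value is the number of fragments of a gene, scaled by 1 factor per library to a total between 10516146 and 10564612, and it can be compared between libraries but not between genes. *idd4* NaCl 1 was the shallowest library with 5882615 fragments and *idd4* NaCl 2 the deepest with 13557480, against 10542342 and 9717450 in WT NaCl 1 and 2. The 4 mock libraries held between 9835492 and 13199512 fragments. A value of 10 therefore stands for fewer fragments in *idd4* NaCl 1, where 1 fragment was worth 1.79, than in *idd4* NaCl 2, where it was worth 0.776. AT5G35110 lay just inside the minimum (mean 10.01), and AT2G43230 (9.997) and *FOP1* (9.981) lay just outside. Differences are *idd4* minus WT, taken on log2(value + 1), which understates them for genes at low levels. Each is given with its standard error (SE) from limma, as are unadjusted p-values, all two-sided. limma fitted all 8 libraries with 1 spread per gene. An SE or p-value of a NaCl difference thus rests on the mock libraries too, and can understate the spread of the NaCl libraries alone.

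*IDD4* itself (AT2G02080, TAIR10.1 chr2:518079-521737, minus strand) had 602.7 and 527.5 scaled fragments in *idd4* NaCl 1 and 2, against 414.2 and 427.8 in WT NaCl 1 and 2. Both values of the libraries labelled *idd4* lay above both WT values, a difference of 0.42 (SE 0.19, unadjusted p = 0.054 with limma). In mock it was 0.54, at 476.8 and 435.8 in the libraries labelled *idd4*, against 273.9 and 360.1 in WT. The transcript was thus not lower under the mutant label, and a count per gene does not show which part of the gene the fragments came from. Every direction below is therefore one between libraries labelled *idd4* and libraries labelled WT. Of the 10 genes on either side of *IDD4*, 13 reached the minimum, with 5 higher and 8 lower and differences from -0.57 to 0.23. *IDD5* (AT2G02070), the adjacent gene of the family, had 713.9 and 1229 in *idd4* NaCl and 768.4 and 918.6 in WT NaCl, so its groups overlapped.

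The IDD family list held 15 genes past the minimum, 12 higher and 3 lower in the libraries labelled *idd4*, with a median difference of 0.22 against -0.05 over all 19534 genes. The libraries did not overlap for 6 of the 15, *IDD4* included, all in the upward direction (40%, against 9.32% of all genes tested). *IDD11* had 344.4 and 313.4 in *idd4* NaCl, against 245.1 and 288.8 in WT NaCl, and *JKD*, a regulator of root tissue patterning, had 148.9 and 138.1 against 132.1 and 99.89. After *IDD4*, the smallest p of the family in limma was that of *IDD11* (0.30, SE 0.21, unadjusted p = 0.19). Without WT NaCl 1 the family median was 0.06.

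Across the genome the contrast gave no gene that passed correction. With limma and Benjamini-Hochberg adjustment over 21820 genes, 0 passed an adjusted p under 0.05 (0% of those tested), and the smallest adjusted p among the 19534 was 1. At an unadjusted p under 0.05, limma passed 0.71% of the tested genes as higher and 1.73% as lower in the libraries labelled *idd4*. Of the 19534 genes, 129 were higher and 334 lower at that threshold, and 0 passed adjustment with edgeR or with DESeq2 on the recovered fragments. edgeR passed 214 and 245 without adjustment and DESeq2 157 and 88, so the excess of lower genes was not shared by DESeq2. After median-of-ratios scaling the limma counts were 229 higher and 243 lower. That scaling moved the median difference to 0.01, against -0.05, and the number of higher genes to 9905, against 8380.

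Differences between the genotypes were small beside the differences between libraries of 1 genotype. The median absolute difference was 0.19 and the median SE 0.28, and differences ran from -0.59 at the 5th to 0.47 at the 95th percentile. *idd4* NaCl 1 and 2 differed by more than 2-fold in 2182 genes (11.2%), and WT NaCl 1 and 2 in 1649 (8.44%). Across the genotypes, *idd4* NaCl 1 and WT NaCl 1 were more than 2-fold apart in 1005 genes (5.14%), and *idd4* NaCl 2 and WT NaCl 2 in 834 (4.27%). Libraries of different genotype and the same number were thus closer than libraries of the same genotype. *idd4* NaCl 1 and WT NaCl 2 were the pair farthest apart, with 2396 genes (12.3%).

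**Figure D1:**
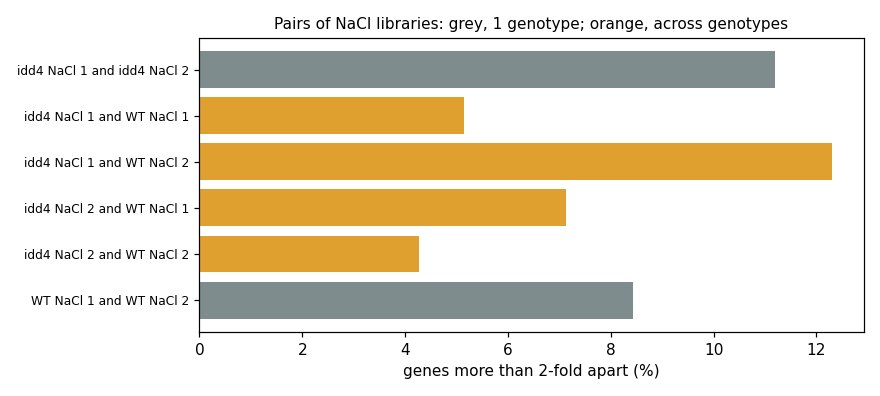
Percentage of the 19534 genes more than 2-fold apart in each pair of NaCl libraries; grey bars join libraries of 1 genotype and orange bars a library labelled *idd4* with a WT library. The bars for same-numbered libraries of different genotype (5.14% and 4.27%) are shorter than both grey bars (11.2% and 8.44%).

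Both libraries labelled *idd4* lay above both WT libraries for 1784 of the 19534 genes and below both for 3576. Over all genes tested these shares were 9.32% and 18.1%. The mean difference exceeded 2-fold upwards in 137 genes and downwards in 189, and of these 60 and 138 had groups that did not overlap. Low genes took most of these: 6.93% of the 3724 genes with a mean of 10 to 50 differed by more than 2-fold, against 0.206% of the 7278 genes at 200 to 1000. The direction also varied with level, with 40.4% of the genes at 10 to 50 and 53.6% of the 1963 genes above 1000 higher in the libraries labelled *idd4*.

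Among genes with both libraries labelled *idd4* above both WT libraries, those with the smallest unadjusted p were led by a chitinase gene, a calcium sensor kinase and a repressor of flowering. AT2G43590, of the chitinase family of cell wall glycoside hydrolases, had 1139 and 1142 in *idd4* NaCl 1 and 2, against 523.3 and 686.2 in WT NaCl 1 and 2 (0.93, SE 0.23, unadjusted p = 0.0033). *CPK9* (AT3G20410), a calcium-dependent protein kinase, had 687 and 410.3 in *idd4* NaCl, against 293.2 and 229.1 in WT NaCl (1.03, SE 0.27). *MAF5* (AT5G65080), a MADS box gene of the *FLC* clade, had 66.37 and 44.99 in *idd4* NaCl and 15.01 and 14.12 in WT NaCl, a difference of 1.84 (SE 0.49). The WT values of *MAF5* were nearly equal, and both libraries labelled *idd4* were well above them, which its choice by small p favours. In mock *MAF5* and *CPK9* also differed upwards, by 1.48 and 0.66, whereas AT2G43590 differed by 0.22.

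The corresponding genes with both libraries labelled *idd4* below both WT libraries were led by an enzyme gene, a protease and a ribosomal protein. *LpxC2* (AT1G24880), annotated as a UDP-3-O-acyl N-acetylglycosamine deacetylase, had 997.4 and 871.1 in *idd4* NaCl and 1535 and 1632 in WT NaCl (-0.76, SE 0.18, unadjusted p = 0.0024, the smallest of all). It belongs to a group of near-identical genes, and how shared fragments were assigned is not stated. AT2G39850, a subtilisin-like serine endopeptidase, had 141.7 and 135.7 in *idd4* NaCl, against 327.2 and 226.9 in WT NaCl (-0.97, SE 0.24). AT1G52300, a zinc-binding protein of the cytosolic ribosome, had 306.7 and 278.5 in *idd4* NaCl, against 474.3 and 490.8 in WT NaCl (-0.72, SE 0.18). For this ribosomal gene the spread within each genotype was far smaller than the gap between them, which its choice by small p favours. In mock its difference was -0.42.

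The 250 bases before the start of these 6 genes are shown because promoters are where factors such as ABFs and IDD proteins bind. They were read from RefSeq TAIR10.1, in the direction of transcription. Capitals mark matches on either strand to the ABRE core ACGTG, the core AGACAA of the site bound by the maize founder of the IDD family, the telo box AAACCCTA and the site II element TGGGCC, the last pair being known from promoters of ribosomal protein genes. The windows are chr2:18082777-18083026 (minus strand) for AT2G43590, chr3:7115569-7115818 (plus) for *CPK9*, chr5:25997254-25997503 (plus) for *MAF5*, chr1:8775651-8775900 (plus) for *LpxC2*, chr2:16630161-16630410 (plus) for AT2G39850 and chr1:19476235-19476484 (minus) for AT1G52300.
AT2G43590: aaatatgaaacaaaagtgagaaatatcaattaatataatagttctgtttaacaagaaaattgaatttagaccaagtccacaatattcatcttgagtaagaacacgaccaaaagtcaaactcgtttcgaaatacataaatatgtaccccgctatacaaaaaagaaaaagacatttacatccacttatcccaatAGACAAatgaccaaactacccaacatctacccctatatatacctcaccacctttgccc
CPK9: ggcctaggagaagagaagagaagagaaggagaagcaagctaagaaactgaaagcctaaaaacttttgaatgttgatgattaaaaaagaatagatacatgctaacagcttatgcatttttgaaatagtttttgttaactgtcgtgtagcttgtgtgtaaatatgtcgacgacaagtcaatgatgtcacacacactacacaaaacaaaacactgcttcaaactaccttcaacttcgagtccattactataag
MAF5: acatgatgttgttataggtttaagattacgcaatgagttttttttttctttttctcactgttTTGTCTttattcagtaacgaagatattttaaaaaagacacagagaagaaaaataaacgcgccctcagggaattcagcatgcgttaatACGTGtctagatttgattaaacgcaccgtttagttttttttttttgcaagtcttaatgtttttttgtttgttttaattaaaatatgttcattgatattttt
LpxC2: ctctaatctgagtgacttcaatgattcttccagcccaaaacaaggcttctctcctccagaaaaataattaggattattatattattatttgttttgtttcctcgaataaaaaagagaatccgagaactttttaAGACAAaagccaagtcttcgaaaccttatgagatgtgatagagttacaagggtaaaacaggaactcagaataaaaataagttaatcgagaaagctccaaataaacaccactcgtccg
AT2G39850: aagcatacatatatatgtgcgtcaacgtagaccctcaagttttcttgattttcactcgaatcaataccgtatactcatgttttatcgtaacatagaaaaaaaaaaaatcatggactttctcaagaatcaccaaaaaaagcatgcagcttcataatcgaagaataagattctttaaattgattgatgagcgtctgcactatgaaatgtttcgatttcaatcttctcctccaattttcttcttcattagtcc
AT1G52300: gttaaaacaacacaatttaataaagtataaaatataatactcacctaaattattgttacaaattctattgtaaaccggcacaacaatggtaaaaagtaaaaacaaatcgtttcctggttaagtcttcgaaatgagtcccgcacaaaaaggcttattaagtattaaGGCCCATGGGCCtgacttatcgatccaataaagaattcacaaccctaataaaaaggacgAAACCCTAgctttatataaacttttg

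The window of AT2G43590 held 1 match to AGACAA, that of *MAF5* 1 to AGACAA and 1 to ACGTG, and that of *LpxC2* 1 to AGACAA. *CPK9* and AT2G39850 held none of the 4 motifs in these windows. AT1G52300 held the telo box once and TGGGCC as 2 adjoining matches, 1 on each strand. Over 19423 genes with such a window, AGACAA occurred in 19.2%, ACGTG in 23.9%, AAACCCTA in 3.46% and TGGGCC in 16.3%. Among the 15 genes named as lower, 6 of 15 windows held TGGGCC and 1 held ACGTG, and among the 14 of the genes named as higher that have a window, 0 held TGGGCC and 5 held ACGTG. These matches are a description of the sequence and not of binding.

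Other genes of the upward set encode wall proteins, enzymes and a lipid transfer protein. AT1G23720, a proline-rich extensin-like protein of the cell wall, had 2511 and 2678 in *idd4* NaCl and 1632 and 1244 in WT NaCl (0.86, SE 0.24). In mock its difference had the other sign, -0.41. AT4G38080, a hydroxyproline-rich glycoprotein, had 2101 and 2172 in *idd4* NaCl, against 1362 and 1447 in WT NaCl, and AT1G02810, of the invertase and pectin methylesterase inhibitor family, 493.3 and 283.1 against 179.1 and 213.9. *UGT87A2*, a UDP-glycosyltransferase, had 1568 and 1115 in *idd4* NaCl and 833.5 and 735.1 in WT NaCl. Further members were AT1G67330 (a glucuronoxylan methyltransferase-like protein, 0.62), AT2G16380 (a Sec14-like phosphatidylinositol transfer protein, 0.99), the bHLH gene AT2G43140 (1.99), *ENODL1* (1.53), *PGSIP7* (0.77), AT2G28270 (1.16) and the mitochondrial genome gene ATMG00510 (0.75).

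The downward set included regulators of chloroplast and RNA biology. *CIA2* (AT5G57180), a transcription factor for genes of protein import into chloroplasts, had 645.8 and 687.2 in *idd4* NaCl, against 1008 and 988 in WT NaCl (-0.58, SE 0.15). *LSM8*, a subunit of the nuclear Sm-like ring that binds U6 RNA in splicing, had 26.91 and 29.48 in *idd4* NaCl and 62.04 and 66.23 in WT NaCl (-1.16, SE 0.31). In both genes the replicates of each genotype were close and the groups lay well apart, as choice by small p favours. *LTP6*, a lipid transfer protein of the apoplast, had 827 and 1150 in *idd4* NaCl and 1530 and 1846 in WT NaCl (-0.78, SE 0.20). *RLP29*, a receptor-like protein, had 12.56 and 20.17 against 42.02 and 45.6, and AT1G70505, an uncharacterized protein, 5.381 and 7.757 against 29.02 and 19.54. AT5G56850, AT1G08125, AT5G15802, AT2G17972, AT3G06610 and the ribosomal genes AT5G27770 and AT4G25890 completed the set, with differences between -1.45 and -0.61. All 30 genes of the upward and downward sets kept their sign under every alternative processing tried, which their choice by small p favours.

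**Figure D2:**
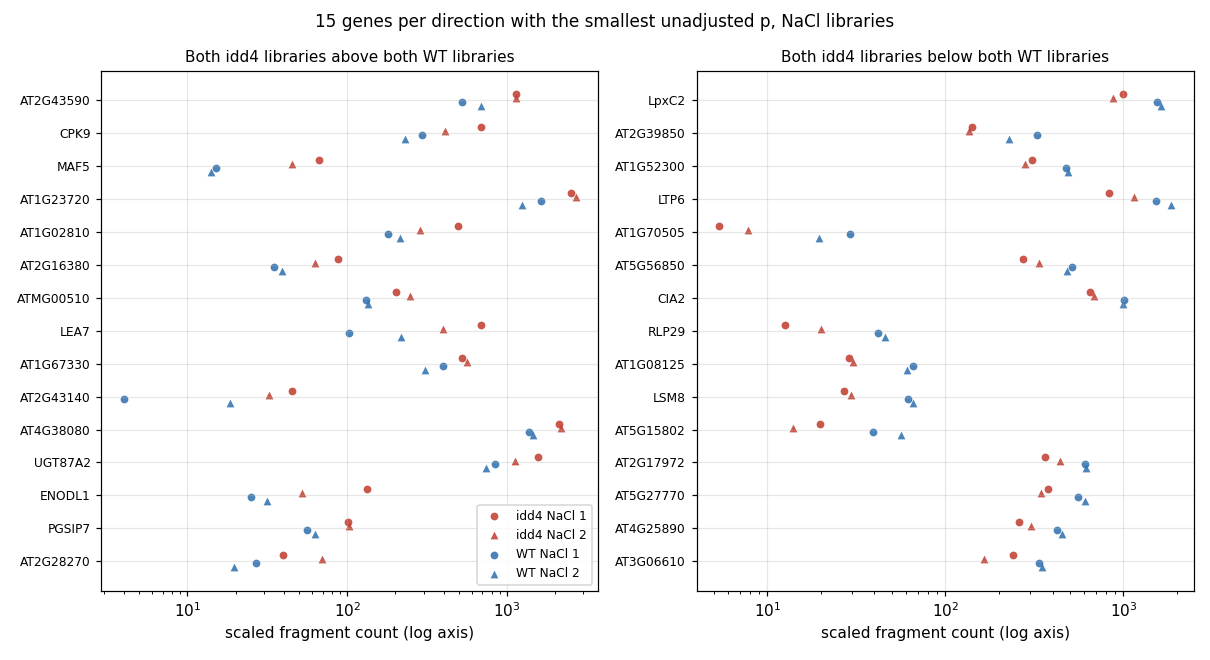
Scaled fragment count (log axis) in each NaCl library for the 15 genes per direction with the smallest unadjusted p; red, libraries labelled *idd4*, blue, WT libraries, circles, replicate 1, triangles, replicate 2. Red and blue do not overlap for any gene shown, since that was a condition of the choice. *LSM8* and *CIA2* show little spread within a genotype, which choice by small p favours.

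Genes with the largest differences were mostly low or uneven between replicates. *CHAT*, which acetylates the green leaf alcohol hexenol, had 235 and 39.56 in *idd4* NaCl, against 52.03 and 4.343 in WT NaCl (2.54, SE 1.05). Its groups overlapped, and within each number the library labelled *idd4* was the higher. *CYP82G1*, of homoterpene synthesis, had 113 and 12.41 in *idd4* NaCl, against 84.05 and 0 in WT NaCl (2.08, SE 1.78). On the lower side, AT2G01021 (uncharacterized) had 77.13 and 0.7757 against 70.04 and 147.7 (-3.13), and *MYB11*, a regulator of flavonol synthesis, 0 and 16.29 against 30.02 and 17.37 (-2.52). AT4G15660, a thioredoxin superfamily gene (-2.12), AT1G49475, an AP2/B3-like factor (-2.11), and AT3G28840 (-1.96) were likewise at levels where the libraries held few fragments.

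LEA proteins and dehydrins were the list with the highest median. Of 19 listed genes 15 passed the minimum, of which 14 were higher and 1 lower in the libraries labelled *idd4*, with a median of 0.66 against -0.05 over all genes. For 8 of the 15 both libraries labelled *idd4* lay above both WT libraries (53.3%, against 9.32% of all genes tested) and for 0 below (against 18.1%). At an unadjusted p under 0.05 in limma, 4 were higher (26.7%, against 0.71% of all genes tested). AT2G42560 is among the 4, the 8 and the 14, but it passed the minimum only through *idd4* NaCl 1 (102.2). Its WT NaCl values were 6.003 and 4.343, so its place in these counts was favoured by the minimum. None of the 15 genes passed adjustment. *LEA7* (AT1G52690) had 687 and 395.6 in *idd4* NaCl, against 103.1 and 217.2 in WT NaCl (1.79, SE 0.53). *ERD10*, an abundant acidic dehydrin, had 19470 and 15130 in *idd4* NaCl, against 8897 and 13230 in WT NaCl (0.66, SE 0.28).

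Several LEA genes were high in 1 library labelled *idd4* above all. AT3G17520 had 313.9 in *idd4* NaCl 1 and 37.23 in *idd4* NaCl 2, against 19.01 and 20.63 in WT NaCl (2.40, SE 0.79). AT2G42560 had 102.2 and 10.08 in *idd4* NaCl, against 6.003 and 4.343 in WT NaCl (2.47, SE 1.09). *LEA4-5* had 421.6 and 86.1 against 61.04 and 77.09, and *RAB18*, a classical ABA-induced dehydrin, 4486 and 2029 against 671.4 and 1836. In each of these 4 genes the second library labelled *idd4* was above both WT libraries too, but by far less than the first. *EM1*, a seed LEA protein, had 26.91 and 3.103 against 70.04 and 2.172 and was the single gene of the list with a lower mean (-0.49, SE 1.37). Without *idd4* NaCl 1 the list's median was 0.32, and without *idd4* NaCl 2 it was 0.89. In mock the median over the same 15 genes was 1.81, and *LEA7* had 379.9 and 139.1 in the libraries labelled *idd4*, against 26.75 and 44.76 in WT. The ABRE core ACGTG stood in the promoter windows of 11 of the 15 genes (73.3%), against 23.9% over all genes.

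**Figure D3:**
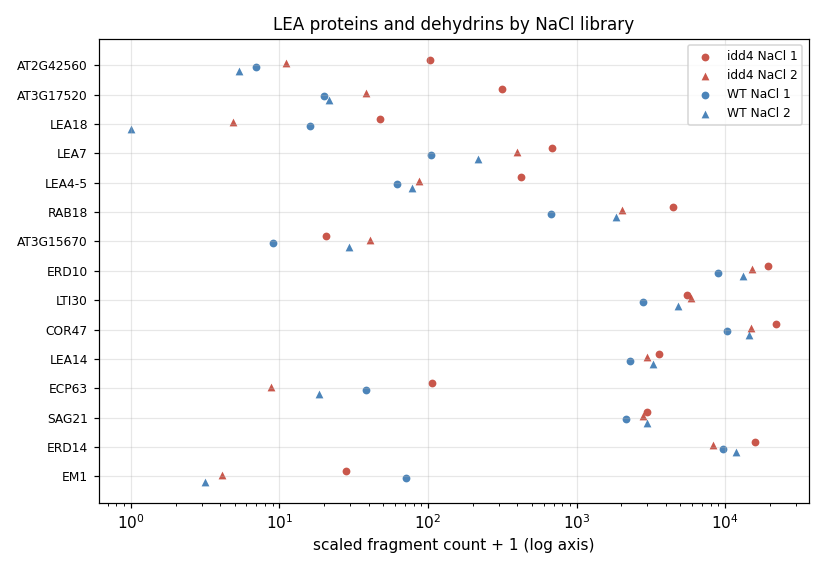
Scaled fragment count + 1 (log axis) of the 15 LEA and dehydrin genes in each NaCl library, ordered by difference; red, libraries labelled *idd4*, blue, WT libraries, circles, replicate 1, triangles, replicate 2. The red circle of *idd4* NaCl 1 is the farthest right in all genes but *EM1*, *LTI30*, *SAG21* and AT3G15670.

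Over 32 genes of ABA signalling and metabolism the median was 0.10, with 20 higher and 12 lower. Groups did not overlap upwards for 3 (9.38%, close to the 9.32% of all genes tested) and downwards for 0 (against 18.1%). Without *idd4* NaCl 1 that median was -0.12, and without *idd4* NaCl 2 it was 0.44. *NCED3*, which carries out the committed step of ABA synthesis, had 425.1 and 195.5 in *idd4* NaCl, against 175.1 and 144.4 in WT NaCl (0.85, SE 0.35, unadjusted p = 0.039). *HB-12*, an ABA-induced homeodomain factor, had 685.2 and 205.6 against 160.1 and 198.7 (1.07, SE 0.52). Among the phosphatases, *HAI1* had 961.5 and 221.8 in *idd4* NaCl and 336.2 and 222.6 in WT NaCl, and *ABI1* 2129 and 1465 against 1500 and 1579 (0.20, SE 0.20). The receptor *PYR1* (1467 and 1402 against 1318 and 1366) and the kinases *SNRK2.2* (-0.06) and *SNRK2.3* (-0.13) were at similar levels in all 4 libraries. *HB-7*, a relative of *HB-12*, had 3100 and 1860 in *idd4* NaCl and 1271 and 2268 in WT NaCl, so that its groups overlapped.

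Of 19 cold and drought markers downstream of ABA, 12 were higher and 7 lower in the libraries labelled *idd4* (median 0.20, but -0.16 without WT NaCl 1 and 0.56 without WT NaCl 2). *LTI65* (AT5G52300, also known as RD29B), whose promoter is a standard ABA reporter, had 1693 and 363.8 in *idd4* NaCl, against 133.1 and 171.6 in WT NaCl (2.37, SE 0.88, unadjusted p = 0.025). *TSPO*, an ABA-induced membrane protein of the secretory pathway, had 410.8 and 83 against 59.03 and 74.92. These were the 2 markers whose groups did not overlap (10.5%, against 9.32% of all genes tested). *LTI78* (RD29A), which answers to cold and drought also without ABA, had 16260 and 21070 in *idd4* NaCl, against 7665 and 20300 in WT NaCl, and *COR15A*, a chloroplast cryoprotective protein, 5579 and 14780 against 6162 and 24440. For *COR15A* the second library of each genotype was the higher, by more than the genotypes differed. In mock *TSPO* differed by 3.12, with 169.8 and 15.19 in *idd4* mock 1 and 2, against 4.28 and 5.968 in WT mock. *LTI65* was likewise higher in the libraries labelled *idd4*, with 827.9 and 110.3 against 28.89 and 30.83. Both mock differences thus came largely from *idd4* mock 1.

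Cytosolic ribosomal proteins were the list with the lowest median. Of 166 genes past the minimum, 157 were lower and 9 higher in the libraries labelled *idd4*, with a median of -0.28 against -0.05 over all genes, and a middle range of -0.43 to -0.17. Both libraries labelled *idd4* lay below both WT libraries in 77 genes (46.4%, against 18.1% of all genes tested) and above both in 1 (0.602%, against 9.32%). At an unadjusted p under 0.05, 15 were lower (9.04%, against 1.73% of all genes tested) and 0 higher, and 0 passed adjustment. The shift was small per gene: 1 of the 166 exceeded 2-fold. Together the 166 genes took 1.22% and 1.52% of the total in *idd4* NaCl 1 and 2, against 1.61% and 1.54% in WT NaCl 1 and 2.

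Besides AT1G52300, the ribosomal genes with the smallest p were AT5G27770 (L22e family, 374.9 and 342.8 in *idd4* NaCl, against 557.3 and 609.1 in WT NaCl) and AT4G25890 (acidic protein of the large subunit stalk, 260.1 and 303.3 against 422.2 and 449.5). In these the groups were far apart and the libraries of each genotype close, which their choice by small p favours. Each library counted in the median: it was -0.16 without *idd4* NaCl 1 and -0.43 without *idd4* NaCl 2, and -0.23 after median-of-ratios scaling. In mock 163 of the 166 were lower and 3 higher in the libraries labelled *idd4* (median -0.34), and 155 were lower in both conditions. Of all 19534 genes, 8342 were higher in mock (median -0.04). The sum of the 166 genes was 126444 and 126359 in *idd4* mock 1 and 2, against 172440 and 131973 in WT mock 1 and 2. The gap between these mock sums thus came largely from WT mock 1. TGGGCC was found in 57.8% of the ribosomal promoter windows and AAACCCTA in 19.3%, against 16.3% and 3.46% over all genes.

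Ribosomal proteins of chloroplasts and mitochondria encoded in the nucleus, a list added after the values had been seen, gave like values. Of 73 genes 59 were lower and 14 higher (median -0.24). Both libraries labelled *idd4* lay below both WT libraries in 34 (46.6%, against 18.1% of all genes tested) and above both in 3 (4.11%, against 9.32%). *RPL15*, of the plastid ribosome, had 2206 and 2457 in *idd4* NaCl, against 3497 and 3099 in WT NaCl (-0.50, SE 0.19). Proteasome subunits, the protein-degrading complex, were more divided, with 10 higher and 28 lower of 38 (median -0.17). Groups lay apart downwards in 12 (31.6%, against 18.1% of all genes tested) and upwards in 6 (15.8%, against 9.32%). The median was -0.03 without *idd4* NaCl 2. The core subunits *PBC2* (46.64 and 61.28 against 74.04 and 125.9) and *PBE1* (229.6 and 208.7 against 275.2 and 329) were lower in the libraries labelled *idd4*, and the core subunit *PAD2* (595.6 and 704.3 against 516.3 and 454.9) was higher.

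Transcripts of the mitochondrial genome, also listed after the values had been seen, stood on the other side. Of 26 past the minimum, 22 were higher and 4 lower in the libraries labelled *idd4* (median 0.47). Their groups lay apart upwards in 16 (61.5%, against 9.32% of all genes tested) and downwards in 1 (3.85%, against 18.1%). Their sum was 1901 and 2283 in *idd4* NaCl 1 and 2, against 1459 and 1522 in WT NaCl 1 and 2. ATMG00510, the gene of this genome with the smallest p, had 202.7 and 248.2 in *idd4* NaCl, against 131.1 and 134.6 in WT NaCl. Plastid genome transcripts were not divided this way: of 44, 26 were higher and 18 lower, with sums of 5690 and 4550 against 3341 and 5239. Both genomes together made up 0.0747% and 0.0668% of the total in *idd4* NaCl 1 and 2, against 0.0472% and 0.0666% in WT NaCl 1 and 2.

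Nuclear photosynthesis genes had a median of -0.25, with 2 higher and 24 lower of 26, but the direction rested on *idd4* NaCl 1. Their sum was 521467 and 916179 in *idd4* NaCl 1 and 2, against 747344 and 836767 in WT NaCl 1 and 2, so that *idd4* NaCl 1 was the lowest and *idd4* NaCl 2 the highest. Without *idd4* NaCl 1 the median was 0.12. Groups lay apart downwards for 4 genes (15.4%, below the 18.1% of all genes tested). The light-harvesting gene *LHCA1* had 14970 and 20120 in *idd4* NaCl, against 22120 and 28570 in WT NaCl (-0.53, SE 0.31), while *LHCB2.1* had 6438 and 16770 against 13460 and 19080. *RBCS1A*, the main small subunit of Rubisco, had 81000 and 193800 against 112300 and 128900 and showed no common direction.

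Beside *CIA2*, its relative *CIL* (AT4G25990) had 25.11 and 26.37 in *idd4* NaCl, against 55.03 and 47.77 in WT NaCl (-0.97, SE 0.31, unadjusted p = 0.013). *GLK2* (AT5G44190), which switches on genes of chlorophyll synthesis and light harvesting, had 920.2 and 883.5 in *idd4* NaCl, against 1340 and 1453 in WT NaCl (-0.63, SE 0.18, unadjusted p = 0.0063). These genes were named for a small p of the genotype difference or of the interaction, which favours close replicates. In mock *GLK2* and *CIL* differed the other way, by 0.49 and 0.81, and *CIA2* by -0.10. The clock gene *CCA1*, a morning-phased repressor, had 134.5 and 170.6 in *idd4* NaCl, against 228.1 and 231.3 in WT NaCl (-0.60, SE 0.31), and 1.06 in mock. Over 16 clock genes 4 were higher and 12 lower (median -0.17), among them *CDF1* (163.2 and 189.3 against 238.1 and 281.2), whereas *TOC1*, the evening partner of *CCA1*, had 3006 and 2955 against 2917 and 2758.

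Whether the genotype difference under NaCl departed from that in mock was tested as an interaction. In limma with Benjamini-Hochberg adjustment 0% of the 21820 genes passed, 0.289% had an unadjusted p under 0.05 upwards and 0.642% downwards. Genes with the smallest interaction p were *GLK2* (-1.12, unadjusted p = 0.0016), *LTP6* (-1.17), AT2G37870, a lipid transfer family gene (-2.24), *CIL* (-1.78) and *CCA1* (-1.65). AT2G37870 had 507.7 and 1239 in *idd4* NaCl, against 1272 and 1405 in WT NaCl. In mock the genotype contrast likewise passed 0% after adjustment, with 0.481% higher and 0.775% lower at an unadjusted p under 0.05. The mock and NaCl contrasts share no library. Across genes their differences correlated at r = 0.19, as a description over 19534 genes that are not independent, and 56.8% had the same sign. Of the 5360 genes with groups apart under NaCl, 982 were apart in the same direction in mock and 462 in the opposite one. Both contrasts leaned downwards, with 8380 of the 19534 genes higher under NaCl and 8342 in mock. Such a shared lean by itself raises the share with the same sign. The share of all genes apart in mock is not given here, so the counts of 982 and 462 have no background beside them.

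**Figure D4:**
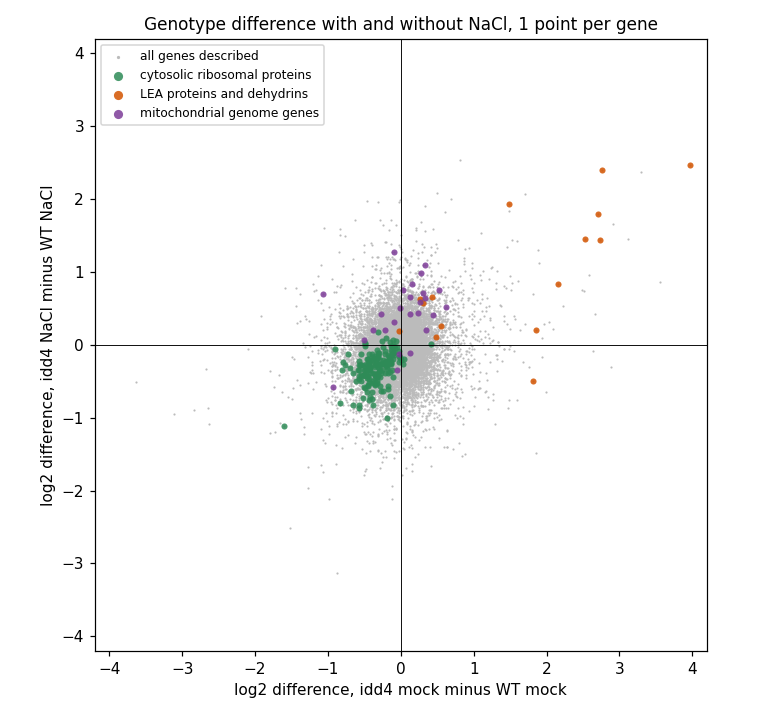
Genotype difference (log2, *idd4* minus WT) in mock on the horizontal and under NaCl on the vertical axis, 1 point per gene, grey for all 19534 genes. LEA and dehydrin genes (orange) lie mostly far to the right (median 1.81 in mock, 0.66 under NaCl), cytosolic ribosomal proteins (green) below and left of the origin (-0.34 and -0.28) and mitochondrial genome genes (purple) above it (0.12 in mock, 0.47 under NaCl).

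Sodium and potassium transport genes gave 8 higher and 12 lower of 20 (median -0.07), with 7 apart downwards (35%, against 18.1% of all genes tested) and 1 upwards (5%, against 9.32%). *KAT2*, an inward potassium channel of guard cells, had 5.381 and 9.308 in *idd4* NaCl, against 15.01 and 19.54 in WT NaCl (-1.16, SE 0.46, unadjusted p = 0.033). *NHX5*, an endosomal sodium and potassium/proton exchanger, had 77.13 and 83 in *idd4* NaCl, against 118.1 and 170.5 in WT NaCl (-0.82, SE 0.26, unadjusted p = 0.011). Its partner *NHX6* had 46.64 and 34.91 against 56.03 and 67.32, so both endosomal exchangers were lower in the libraries labelled *idd4*, while the vacuolar *NHX1* (523.8 and 396.4 against 441.3 and 440.8) overlapped. In the SOS pathway, the calcium sensor *SOS3* had 52.02 and 31.03 in *idd4* NaCl and 59.03 and 59.72 in WT NaCl (-0.55, SE 0.35). The kinase *SOS2* had 48.43 and 20.17 against 11.01 and 27.14, and the exchanger *SOS1* 296 and 201.7 against 239.1 and 260.6, both overlapping. *HKT1*, which retrieves sodium from xylem, had 30.5 and 8.532 against 53.03 and 5.429, and here replicate 1 was high in both genotypes.

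Lists of fast stress responses were divided by replicate number more than by genotype. All 17 touch, wounding and early stress factors had a higher mean in the libraries labelled *idd4* (median 0.48). Yet 1 had groups that did not overlap (5.88%, against 9.32% of all genes tested upwards). At an unadjusted p under 0.05 in limma 0 were higher (against 0.71%). The zinc finger gene *STZ* had 1794 and 448.3 in *idd4* NaCl, against 854.5 and 294.2 in WT NaCl, and *ERF13* 288.8 and 24.05 against 210.1 and 2.172. For both genes library 1 was higher than library 2 in both genotypes. The median of the list was -0.27 without *idd4* NaCl 1, 1.42 without *idd4* NaCl 2, 1.15 without WT NaCl 1 and 0.03 without WT NaCl 2. *PUB23*, a ubiquitin ligase gene, was the exception with 719.3 and 336.6 against 292.2 and 295.3.

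Jasmonate genes followed the same division, with 23 higher and 9 lower of 32 (median 0.14) and a median of -0.50 without *idd4* NaCl 1 and 0.65 without *idd4* NaCl 2. *CORI3*, a jasmonate-induced lyase, had 17740 and 8290 in *idd4* NaCl, against 6409 and 6478 in WT NaCl (0.91, SE 0.33, unadjusted p = 0.021). It was the gene of the list with non-overlapping groups (3.12%, against 9.32% of all genes tested upwards), whereas the storage protein *VSP1* had 20850 and 3040 against 16490 and 1404. Iron deficiency genes gave 6 higher and 19 lower of 25 (median -0.12). Groups lay apart in 0 of them, against 9.32% upwards and 18.1% downwards of all genes tested. *bHLH38*, a regulator of iron uptake, had 26.91 and 186.9 in *idd4* NaCl, against 62.04 and 438.7 in WT NaCl, low in library 1 of both genotypes. The iron list's median was -1.09 without WT NaCl 1 and 0.31 without WT NaCl 2, and -1.05 in mock.

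Salicylate and immunity genes had 19 higher and 6 lower of 25 (median 0.20, -0.10 without *idd4* NaCl 1 and 0.57 without *idd4* NaCl 2). Groups lay apart upwards in 6 (24%, against 9.32% of all genes tested) and downwards in 2 (8%, against 18.1%). Among the 6, *NPR3*, a salicylate receptor, had 473.6 and 352.2 in *idd4* NaCl and 263.2 and 344.2 in WT NaCl, *NPR1* 480.7 and 420.4 against 384.2 and 381.1, and *SAG101* 260.1 and 204 against 180.1 and 169.4. *PR5*, an antimicrobial thaumatin-like protein, went the other way, with 19.73 and 24.05 against 44.03 and 33.66 (-0.79, SE 0.29, unadjusted p = 0.023). *WRKY33* had 1573 and 760.9 against 1180 and 566.8. Of 10 senescence and starvation genes 8 were higher and 2 lower (median 0.32, -0.06 without *idd4* NaCl 1), with *SEN1* at 231.4 and 67.48 in *idd4* NaCl, against 55.03 and 31.49 in WT NaCl (1.56, SE 0.57).

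Salt-annotated genes that the study lists as bound by IDD4 in chromatin immunoprecipitation, 50 in all, had 31 higher and 19 lower in the libraries labelled *idd4* (median 0.06, -0.18 without *idd4* NaCl 1 and 0.31 without *idd4* NaCl 2). Groups lay apart upwards in 7 and downwards in 4, or 14% and 8%, against 9.32% and 18.1% of all genes tested. *TMT1*, a vacuolar sugar transporter, had 1220 and 1286 in *idd4* NaCl, against 925.5 and 862.1 in WT NaCl (0.49, SE 0.18, unadjusted p = 0.024). *GDH2*, a glutamate dehydrogenase, had 3010 and 2060 against 1570 and 1781 (0.57, SE 0.21), and AT5G06980 had 16.14 and 27.92 against 52.03 and 64.06 (-1.40, SE 0.53). In these 3 genes the groups were apart under NaCl, and in mock they differed by -0.03, -0.08 and 0.11. The study's binding data came from lines expressing GFP-tagged IDD4. Its higher transcript levels of *RD26* and *NAC019* came from *IDD4* overexpressors, and not from *idd4* seedlings under NaCl. The NAC factors of the study had groups that overlapped here: *RD26* had 1103 and 509.6 in *idd4* NaCl and 750.4 and 517.9 in WT NaCl, *NAC019* 638.6 and 34.13 against 352.2 and 38, and *NAC083* 1220 and 1120 against 1022 and 1372. *MYB15* (416.2 and 41.11 against 180.1 and 31.49), *MYB61* and *MYB96* also overlapped, as did the kinase *MPK6*, with 461 and 249 in *idd4* NaCl and 409.2 and 359.4 in WT NaCl.

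In the stomatal lineage, 9 were higher and 8 lower of 17 genes past the minimum of 22 listed (median 0.01). Groups lay apart downwards in 4 (23.5%, against 18.1% of all genes tested) and upwards in 0 (against 9.32%). The median was -0.22 without WT NaCl 2. The receptor-like protein *TMM* had 57.4 and 139.6 in *idd4* NaCl, against 148.1 and 149.8 in WT NaCl, and the protease *SDD1*, which limits stomatal density, 19.73 and 41.11 against 59.03 and 43.43 (-0.81, SE 0.47). Both were lowest in *idd4* NaCl 1. *SPCH*, which starts the lineage, had 21.53 and 46.54 against 29.02 and 32.57, the peptide gene *STOMAGEN* (EPFL9) 30.5 and 44.21 against 43.02 and 56.46, and *MUTE* fell short of the minimum, with 5.381 and 2.327 against 6.003 and 7.6. Gibberellin and DELLA genes had 11 higher and 10 lower of 21 (median 0.01, -0.28 without *idd4* NaCl 1), 6 apart downwards (28.6%, against 18.1% of all genes tested) and 1 upwards (4.76%, against 9.32%). The DELLA genes *RGA1* (1322 and 1455 against 1277 and 1394) and *GAI* (410.8 and 509.6 against 468.3 and 472.3) were level between the genotypes. The 8 genes of the *FLC* clade and flowering list had a median of -0.17. *MAF5* alone lay apart upwards (12.5%, against 9.32% of all genes tested). *SVP*, another repressor of flowering, alone lay apart downwards (12.5%, below the 18.1% of all genes tested). It had 288.8 and 272.3 in *idd4* NaCl, against 301.2 and 436.5 in WT NaCl. *MAF4* had 55.61 and 20.94 in *idd4* NaCl, against 12.01 and 22.8 in WT NaCl (1.00, SE 0.58), and *FLC* 17.94 and 24.82 against 26.02 and 19.54, both overlapping.

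Markers of root tissue, by which a difference in sampled tissue would be visible, had 7 higher and 8 lower of 15, and their sum was 2969 and 7171 in *idd4* NaCl 1 and 2, against 3873 and 5511 in WT NaCl 1 and 2. By this sum the libraries labelled *idd4* were the lowest and the highest, as for photosynthesis genes. Markers with large values weigh most in a sum, and single ones did not all follow it. *CASP1* had 577.6 and 411.1 in *idd4* NaCl, against 326.2 and 426.7 in WT NaCl. *CASP2* (199.1 and 149.7 against 97.06 and 147.7) and *CASP4* (57.4 and 36.46 against 26.02 and 27.14) lay apart upwards. These *CASP* genes were highest in *idd4* NaCl 1, whereas *RHD6* was lowest there (37.67 and 90.75 against 71.04 and 134.6). In the list 3 lay apart upwards and 2 downwards. Genes often used as references had a median of -0.00 over 14, with 3 apart upwards (21.4%, against 9.32% of all genes tested). The part of tissue make-up in the other differences was not tested. Smaller lists had these medians: MAP kinases (-0.02, 9 genes), ferritins (0.05), auxin response (-0.04), alpha-expansins (-0.03), type 1 lipid transfer proteins (0.03), proline metabolism (0.11), flavonoid synthesis (-0.10), mitosis (-0.15), cuticular wax (0.18), heat shock (-0.00) and volatile synthesis (0.21). Several of these turned on 1 library: leaving out each in turn gave -0.47 to 0.82 for heat shock, -0.58 to 1.88 for volatile synthesis and -0.51 to 0.59 for ferritins. Within them *KCS6*, of wax chain elongation, had 4868 and 3599 in *idd4* NaCl, against 2714 and 3241 in WT NaCl (0.50, SE 0.22), and the heat shock factor *HSFA6B* 224.2 and 92.3 against 67.04 and 67.32 (1.09, SE 0.41).

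**Figure D5:**
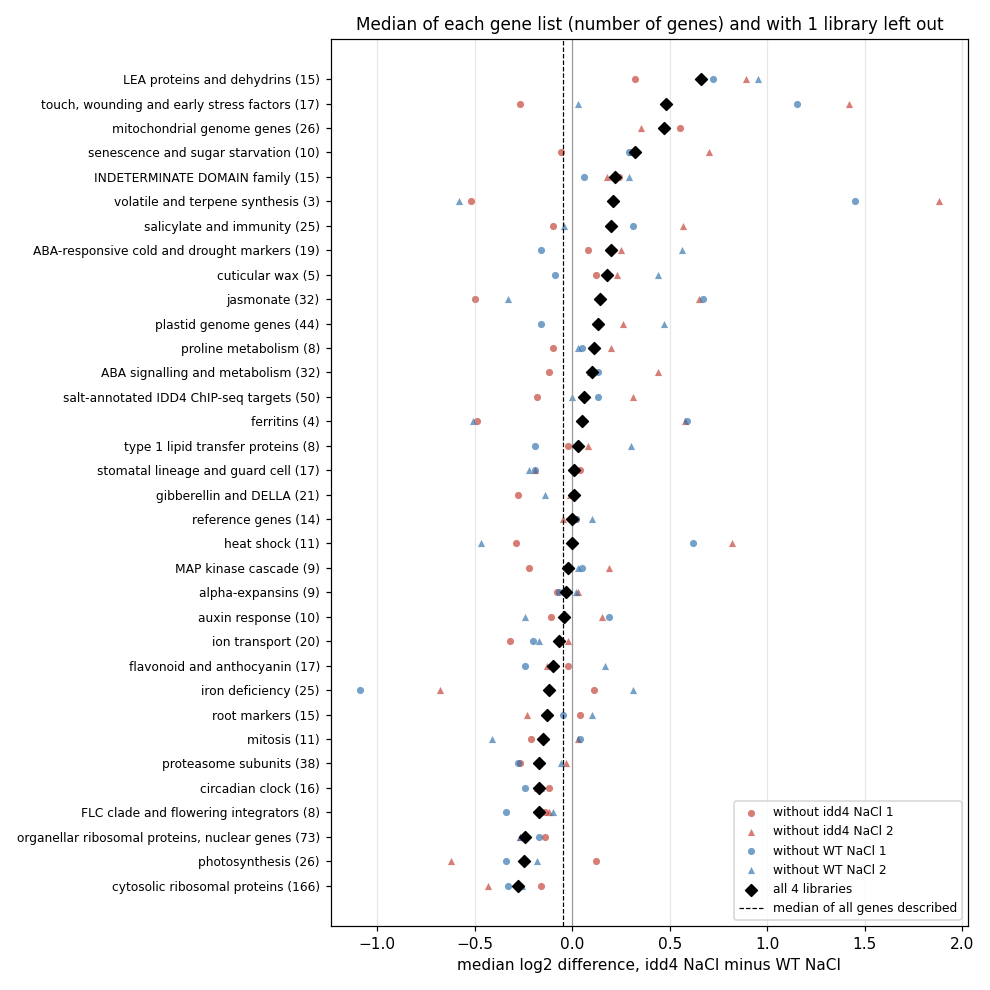
Median log2 difference (*idd4* NaCl minus WT NaCl) of each gene list, black diamonds, with the median when each of the 4 NaCl libraries was left out (red, without a library labelled *idd4*; blue, without a WT library; the number of genes in parentheses). The LEA and mitochondrial genome lists stay above zero and both ribosomal lists below it without each library, whereas touch, jasmonate, iron and photosynthesis lists lie on both sides. The IDD family list also stays above zero, and the clock, *FLC* clade, proteasome and ion transport lists below it.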

How the data were processed

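RNA sequencing libraries of *A. thaliana* seedlings were grouped by the genotype and treatment in their labels, 2 per group. The submitters' processing notes name FastQC, Trimmomatic 0.32 and Cufflinks with the TAIR10 build, and the methods also name TopHat and cuffdiff. The authors deposited 1 signal value per gene and library. It is a fragment count times a factor of its library, and not FPKM, for which the tests had been designed. Fragments were recovered by dividing by the smallest step of a library, and 99.58% or more of the quotients came within 0.05 of a whole number. Counting of shared fragments and of strand is not given in the sources used here.

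Genes averaging at least 1 over the 8 libraries (21820) were fitted on log2(value + 1) in limma 3.58.1 under R 4.3.3 (a mean per group, trended variance), with two-sided p-values adjusted by Benjamini-Hochberg over all genes at 0.05. The alternatives were the recovered fragments in edgeR 4.0.16 and in DESeq2 1.42.0, other scalings, pseudocounts and filters, a replicate block and leaving out each library. The fit was tested on simulated data with planted changes, and how many of these it recovered is not reported here. Gene positions and promoters are of RefSeq TAIR10.1, to which 26558 of 27207 genes were matched and 649 were not.

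Named were, per direction, 15 genes with the smallest p among those with both libraries labelled *idd4* beyond both WT libraries, the 5 largest differences, up to 4 genes of each list by p, a set of genes from the study, *IDD5* and the 5 smallest interaction p. That set did not hold every gene the study names. *SIP2* was left out, as was *HAK5*, which the paper reports as raised in the *idd4* transcriptome. Further members of lists were named, and the organellar lists made, after their values were seen. The genes described and the gene lists were chosen with earlier results of these data known.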

Additional observations from a re-analysis of the deposited data

How the results depend on the processing

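Each group held 2 libraries, and *idd4* NaCl 1 was the shallowest, so low genes rest on few fragments there. Under NaCl, 0 genes passed adjustment in limma, edgeR and DESeq2 and in every alternative except without a filter on low values, where 1 gene, *CIA2*, passed (adjusted p = 0.046, limma). Of the 19534 genes, 129 were higher and 334 lower at an unadjusted p under 0.05. The higher count was 214 with edgeR, 229 after median-of-ratios scaling, 231 after quantile normalization, 238 without a filter and 69 with only the 4 NaCl libraries. The lower count was 88 with DESeq2, 586 without a filter and 186 with only the 4 NaCl libraries. Leaving out a library gave 48 (without *idd4* NaCl 1) to 724 (without *idd4* NaCl 2) higher and 242 (without *idd4* mock 2) to 710 (without *idd4* NaCl 2) lower, 333 higher without WT NaCl 1 and 199 without WT NaCl 2. Apart from these and the replicate block, the alternatives kept both counts within 1.5 times.

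No source says that equal replicate numbers mark paired libraries. Deviations from the group means of same-numbered libraries correlated at 0.49 across genes between *idd4* NaCl and WT NaCl and at 0.05 to 0.34 between other groups. With the replicate number as a block, 234 genes were higher and 581 lower at an unadjusted p under 0.05, and 0 passed adjustment. In mock the block passed 1 gene, *BHLH100*, against 0. The interaction passed 0 genes in every alternative. Of 170 named genes, 117 kept the sign of their difference under every alternative.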
